A study of Rattus norvegicus with 22 samples.

Results

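The comparison set 2 ATAC libraries of rats that had received cocaine against 2 libraries of rats that had not. Its members were chosen by the treatment in the sample labels and make up 4 of the 22 samples of the series. The measure was the highest summit value inside each active region, ranked within a library. Of the 99896 active regions that the authors merged from the 4 libraries, 49737 held an interval of every library and entered the comparison of ranks. The other 50159 held an interval of 1 to 3 libraries and are described by presence.

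All 4 libraries came from the prefrontal cortex (PFC) of male Sprague-Dawley rats, from nuclei of flash frozen tissue. The cocaine-treated side held the library labelled cocaine and the library labelled WIN+cocaine. The other side held the control library and the library labelled WIN, a synthetic cannabinoid receptor agonist. Each treatment had 1 library, so the libraries of a side differed in WIN and the spread within a side contains that difference. Age, dose and schedule are not in the labels used here, and whether a library came from 1 animal or a pool is not given either.

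ATAC sequencing reads open chromatin: a transposase inserts sequencing adapters where nuclear DNA is not packed into nucleosomes, and promoters and active enhancers stand out as peaks. Cocaine blocks the dopamine transporter and so raises dopamine outside cells, including in the prefrontal cortex, which receives dopamine input from the midbrain. WIN acts on cannabinoid receptors, which in the cortex lie largely on presynaptic terminals. No source used here names the genome build of the coordinates, so regions are named by position, without genes or sequences, and the tissue could not be checked against its marker genes.

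The cocaine-treated libraries held more intervals (called stretches of open chromatin) than the others, and the intervals were narrower. The control library held 69639 intervals, the WIN library 70942, the cocaine library 76590 and the WIN+cocaine library 76884. Median interval width was 356 bp (control), 358 bp (WIN), 337 bp (cocaine) and 343 bp (WIN+cocaine). The median summit value, the authors' score at the highest point of an interval, was 37 in control and in WIN, and 39 in cocaine and in WIN+cocaine. For these measures the sides did not overlap (exact permutation test, two-sided, p = 0.333 for each, the smallest that 2 libraries against 2 allow). Covered length overlapped between the sides, at 27804221 bp in control and 28563834 bp in WIN, against 28430928 bp in cocaine and 29035933 bp in WIN+cocaine (exact permutation p = 0.667). Numbers of reads are not given in the files, so depth is unknown and its part in these differences was not tested.

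On percentile ranks, no region passed the test between the sides without WIN as a term, while 63 did with it (0.127%). On other scales, also without the term, 6 to 21 regions passed, as described further on. Without the term, limma on the percentile rank (0 lowest, 100 highest) called 0 of 49737 regions (0.0%) at a Benjamini-Hochberg adjusted p under 0.05, and the smallest adjusted p was 0.445. At an unadjusted p under 0.05, 4518 regions passed (9.08%), 2139 higher with cocaine (4.3%) and 2379 lower (4.78%). The same test of the WIN-exposed against the other libraries called 0 regions adjusted (0.0%) and 1197 unadjusted (2.41%). In each of these tests the spread within a side contains the difference of the other drug.

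Both cocaine-treated ranks lay beyond both other ranks in 20060 regions (40.3%), of which 9904 were higher (19.9%) and 10156 lower (20.4%). Between the WIN-exposed and the other libraries, 14093 regions did not overlap (28.3%). With the 4 libraries in random order and no ties, either share would be 0.333 of the regions. A region whose sides do not overlap for cocaine must overlap for WIN, so the shares are not independent. Ranking removes a common shift: on the deposited log2 scale the cocaine-treated values lay a median of 0.14 above the others, and the non-overlapping regions then split into 32.5% higher and 9.92% lower. The near-equal split therefore holds for ranks, not for the values as deposited.

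Most differences were small beside the scale. The median absolute difference of mean rank was 6.78 percentile points. A difference of at least 20 points was seen in 2762 regions higher and 2824 lower with cocaine, and one of at least 40 points in 86 higher and 94 lower. All of the regions past 40 points had sides that did not overlap.

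Among regions of at least middle strength (mean rank of 50 or more over the 4 libraries), the ratio of mean summit values, cocaine-treated to other, was 2.25 to 2.91 in the 6 regions with the widest higher ranks and 0.419 to 0.528 in the 6 with the widest lower ranks. The region at chr7:8866353-8866612 had a summit value of 34 in control and 34 in WIN, against 96 in cocaine and 90 in WIN+cocaine. Its rank was 53.5 points higher with cocaine (SE 12.2, limma adjusted p = 0.445). The region at chr1:176726930-176727280 had 40 in control and 34 in WIN, against 88 in cocaine and 127 in WIN+cocaine, 51.0 points higher (SE 11.4, limma adjusted p = 0.445). In both regions the cocaine-treated values lay far above the others. Both were called by limma on other scales: the first had an adjusted p of 0.019 with normal scores, 0.0441 with quantile-normalized log2 values and 0.0405 with log2 values as deposited, and the second 0.00675, 0.0262 and 0.0405.

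The other 4 with the widest higher ranks had ratios under those of the first pair. At chr15:88470258-88470748 the summit values were 30 in control and 37 in WIN, against 70 in cocaine and 90 in WIN+cocaine. At chr3:14022653-14023202 they were 27, 40, 84 and 73 in the same order. Of the pair on chromosome 4, chr4:71809222-71809597 had 37, 33, 95 and 70, and chr4:64570599-64571027 had 41, 31, 78 and 84. Rank differences of these 4 ran from 44.5 to 47.9 points, and limma adjusted p-values from 0.468 to 0.474. The sides did not overlap in any of the 4, which is part of how they were chosen.

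Among the 6 widest lower ranks, the region at chr6:93416450-93417726 came first, with a summit value of 85 in control and 82 in WIN, against 40 in cocaine and 34 in WIN+cocaine. The rank difference was -54.3 points (SE 12.6, limma adjusted p = 0.448). This region held 1 interval in control and in WIN and 2 in each cocaine-treated library. Its highest summit lay at 93417441 in control and 93417473 in WIN, against 93416865 in cocaine and 93416769 in WIN+cocaine. The values of the sides thus come from different places in the region. At chr9:12440980-12441464 the values were 101 in control and 102 in WIN, against 49 in cocaine and 36 in WIN+cocaine, a difference of -50.9 points (SE 11.2, limma adjusted p = 0.445). Control and WIN were nearly equal in both regions, and both cocaine-treated values lay far below them. These too were called by limma on other scales: the first had an adjusted p of 0.0194 with normal scores and 0.0441 with quantile-normalized log2 values, and the second 0.00457 and 0.0114.

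Of the remaining 4 lower regions, the first pair had even sides and the second did not. At chr2:221072188-221072667 the summit values were 70 in control and 73 in WIN, against 34 in cocaine and 40 in WIN+cocaine, and at chr8:116324963-116325481 they were 70, 73, 38 and 37. At chr7:38515233-38515877 they were 94, 69, 35 and 51, and at chr19:49482258-49482720 they were 105, 74, 44 and 45. In the last pair the control value stood well above the WIN value. Rank differences of these 4 ran from -48.3 to -42.2 points, with limma adjusted p-values of 0.468 to 0.474.

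**Figure D1:**
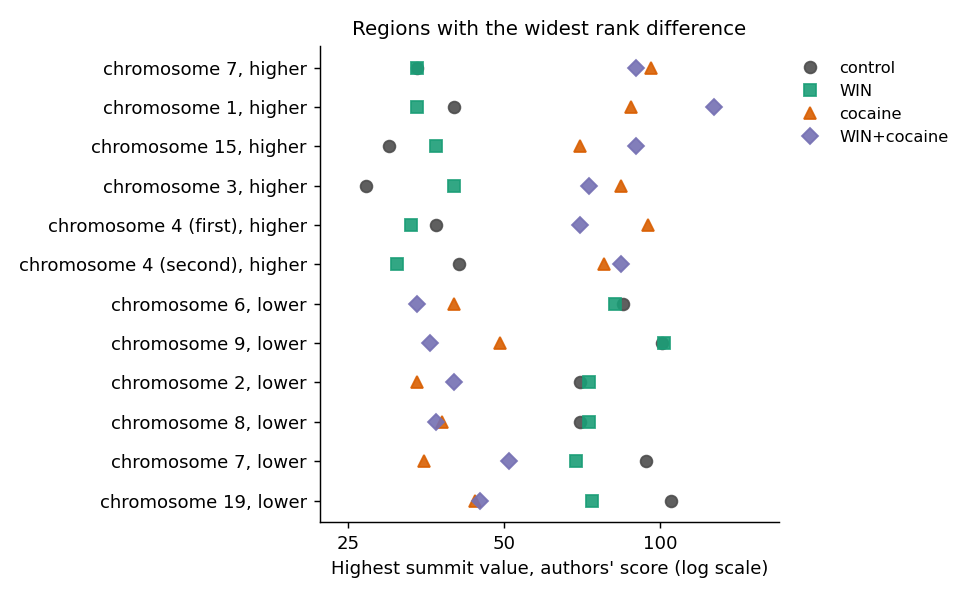
Highest summit value (authors' score, log axis) in each of the 4 libraries for the 6 regions with the widest higher and the 6 with the widest lower rank difference at a mean rank of 50 or more, 1 point per library. The cocaine and WIN+cocaine points lie to the right of the others in the upper 6 rows and to the left in the lower 6, and in the first row control and WIN share the value 34.

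Without the limit on mean rank, the widest differences came from weaker regions. Higher with cocaine were chr2:17597934-17598446 (27 in control and 26 in WIN, against 72 in cocaine and 73 in WIN+cocaine), chr19:297153-297560 (21, 26, 59 and 67) and chr2:93740809-93741317 (27, 31, 61 and 98). In the first of these the interval itself was 263 bp wide in control and 265 bp in WIN, against 513 bp in cocaine and 386 bp in WIN+cocaine, and the summit was listed at the same position in all 4 libraries. Of all summit positions, 98.8% fall on a grid of 16 bp, so positions agree or differ by steps of that size. Lower were chr9:16439658-16440575 (53 in control and 56 in WIN, against 25 in cocaine and 22 in WIN+cocaine), chr17:45554717-45555199 (67, 71, 28 and 37) and chr2:143869049-143869538 (51, 51, 23 and 20). In the region on chromosome 9 the highest summit lay at 16439873 in WIN+cocaine and between 16440289 and 16440385 in the other libraries. The rank differences were 58.7, 56.1 and 55.1 points for the higher and -56.8, -54.9 and -54.6 points for the lower regions, and limma adjusted p-values ran from 0.445 to 0.468.

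The 3 strongest regions hardly moved in rank, since each was near the top in every library, but their deposited values did not stay level. At chr2:198589704-198590343 the summit value was 1369 in control and 1217 in WIN, and 714 in cocaine and 794 in WIN+cocaine, a ratio of mean values of 0.583, against a median summit value over all common regions that was higher on the cocaine-treated side (51 against 46). The summit was in the same step of the grid in all 4 libraries and the interval was 613 to 627 bp wide. At chr12:54371-55350 the values were 704, 618, 606 and 598 in the same order (ratio 0.911). The region at chr17:3769867-3770395 went the other way, with 563 in control and 519 in WIN, against 748 in cocaine and 689 in WIN+cocaine (ratio 1.33). Their rank differences were -0.0020, -0.0090 and 0.010 points in the order given.

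The count of calls depended on the scale and on whether WIN was a term of the fit. With WIN exposure as a term, so that libraries were compared within WIN, limma called 63 regions at an adjusted p under 0.05, 28 higher and 35 lower. With 4 libraries this fit has 1 residual degree of freedom, and the spread of each region rests mainly on the spread of other regions of like rank. Normal scores of the ranks gave 21 calls (6 higher, 15 lower), quantile-normalized log2 values 13 (3 higher, 10 lower) and log2 values as deposited 6 (5 higher, 1 lower). All 13 calls of the quantile-normalized values were among the 21 of the normal scores, and 5 of them were also among the 63.

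The 63 regions were strong ones, with a mean rank of 76.0 to 95.1. Calls with normal scores ranged in mean rank from 19.8 to 99.99, so the strength of called regions depended on the fit. The 28 higher regions had median summit values of 87 in control and 79 in WIN, against 147 in cocaine and 145 in WIN+cocaine, and a median width of 507 bp. The 35 lower regions had medians of 134, 140, 94 and 94 and a median width of 738 bp. Regions in the same range of mean rank that were not called had a median width of 612 bp (8811 regions). The lower calls were thus wider and the higher calls narrower than regions of like strength, and they lay on 14 and 13 chromosomes.

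The 5 regions called with WIN as a term, with normal scores and with quantile-normalized log2 values were all lower with cocaine. These regions were chosen after their values were seen. They were chr3:43182697-43183662 (163 in control and 197 in WIN, against 100 in cocaine and 115 in WIN+cocaine), chr17:44757893-44758748 (211, 214, 131 and 117), chr1:167158228-167158934 (156, 126, 81 and 76), chr4:162039999-162041228 (179, 184, 125 and 99) and chr1:11909896-11911352 (222, 256, 156 and 127). At chr4:162039999-162041228 the highest summit lay at 162040769 in WIN+cocaine and between 162040257 and 162040321 in the other libraries. The adjusted p-values of the 5 regions by limma with WIN as a term ran from 0.00231 to 0.00845. Without the term, each was 0.445 by limma on percentile ranks. Limma gave 0.00369 to 0.0457 with normal scores and 0.00815 to 0.0441 with quantile-normalized log2 values, also without it.

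The last of these lay in a run of calls at the start of chromosome 1, also singled out after the values were seen. Between positions 11906085 and 11971995, 6 regions had an interval of all 4 libraries, 5 were called lower with WIN as a term, and in all 6 both cocaine-treated ranks lay below both others. At chr1:11906605-11906930 the summit value was 159 in control and 215 in WIN, against 138 in cocaine and 94 in WIN+cocaine. At chr1:11971586-11971995 it was 168, 162, 84 and 118. The region not called, chr1:11909204-11909515, had 169 in control and 184 in WIN, against 179 in cocaine and 112 in WIN+cocaine, so that its deposited values overlapped while its ranks did not. Neighbouring regions share their place on the chromosome and are not separate replicates of the difference.

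The cocaine difference could be taken in 2 pairs that share no library, as cocaine minus control and as WIN+cocaine minus WIN. The pairs had the same direction in 27396 of 49737 regions (55.1%), 13627 higher and 13769 lower, and opposite directions in 44.9%. Across regions the differences of the pairs had a Pearson r of 0.119 and a Spearman rho of 0.118 (n = 49737 regions, which share the 4 libraries and are not independent). The median absolute difference was 8.65 points for cocaine minus control and 9.20 points for WIN+cocaine minus WIN. Each pair has 1 library a side and no replicate check.

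**Figure D2:**
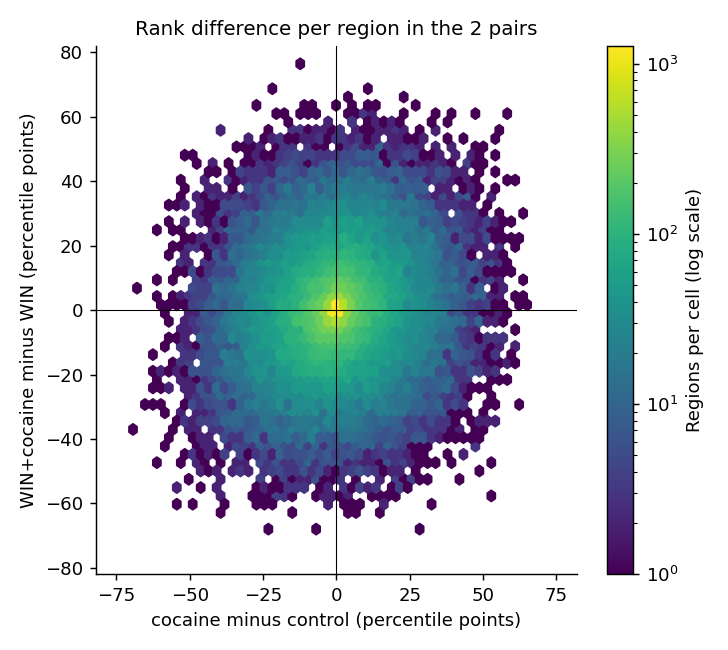
Rank difference of each of the 49737 regions in cocaine minus control (x axis, percentile points) against WIN+cocaine minus WIN (y axis, percentile points), as regions per hexagonal cell on a log colour scale. The cloud is nearly round (Pearson r 0.119), with 55.1% of regions in the quadrants where both pairs have the same sign.

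Libraries on the same side were somewhat more alike than libraries on different sides. The Spearman rho of summit values across regions was 0.872 between cocaine and WIN+cocaine and 0.854 between control and WIN. The 4 pairings across sides had 0.832 to 0.845. The pairing of WIN with WIN+cocaine, which share WIN, was the least alike at 0.832.

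In the difference between the sides, chromosomes 10, 12 and X stood apart from the other 18 with at least 50 regions. On chromosome 10 the median rank was 45.1 in control and 47.7 in WIN, against 39.3 in cocaine and 40.8 in WIN+cocaine (1456 regions). On chromosome 12 it was 45.1, 45.2, 40.9 and 37.6 (778 regions). On chromosome X it was 41.7, 39.9, 43.3 and 44.0 (1118 regions). The cocaine-treated libraries thus had lower ranks on chromosomes 10 and 12 and higher ranks on chromosome X, with sides that did not overlap (exact permutation p = 0.333 for each, the smallest possible). The sides also did not overlap on 8 of the other 18, where the mean of the median ranks differed by -1.66 to 2.05 points, against -6.31 on chromosome 10, -5.90 on chromosome 12 and 2.86 on X.

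These are positions relative to the other regions of a library. As deposited, the median summit value of chromosome 10 was nearly level, at 43 in control, 44.5 in WIN, 44 in cocaine and 45 with both drugs, while over all common regions it was 46, 46, 51 and 51. Chromosome 12 had 43, 43, 45 and 43, and X had 41, 40, 46.5 and 47.

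Region by region, the median rank difference was -3.40 points on chromosome 10, -3.13 points on chromosome 12 and 1.43 points on chromosome X. The other 18 chromosomes had medians from -0.60 to 0.56. Against a background of 19.9% higher and 20.4% lower over all regions, chromosome 10 had 11.1% of its regions higher and 30.6% lower without overlap. Chromosome 12 had 12.1% higher and 27.6% lower, and chromosome X 26.0% higher and 14.9% lower. On the other 18, the share higher ran from 17.1% to 22.1% and the share lower from 17.1% to 22.5%.

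**Figure D3:**
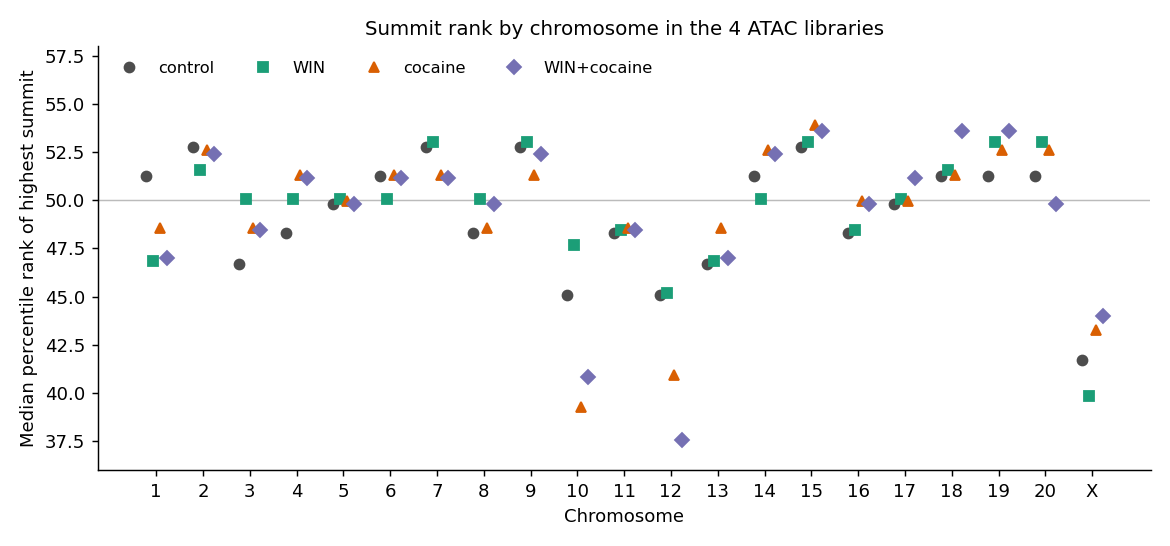
Median percentile rank of the highest summit value over the regions of each chromosome (x axis) in each of the 4 libraries, 1 point per library, with a line at 50. On chromosomes 10 and 12 the cocaine and WIN+cocaine points (39.3 and 40.8, 40.9 and 37.6) lie below the control and WIN points, and on chromosome X they lie above.

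The pattern of chromosomes 10 and X was present in both pairs. On chromosome 10 the median was -2.55 points in cocaine minus control and -4.08 in WIN+cocaine minus WIN, and on chromosome X 1.28 and 1.83. Chromosome 12 leaned on 1 library: the pairs gave -0.95 and -3.80, without the WIN+cocaine library the difference was -0.80, and with all active regions ranked, a missing interval at the lowest rank, it was -1.81. Ranks taken within width groups moved chromosome X to 2.30.

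Active regions on these chromosomes were about as wide as elsewhere. Median region width was 488 bp on chromosome 10, 479 bp on chromosome 12, 492 bp on X and 472 to 492.5 bp on the rest. In each of 5 width classes, the median difference less that of all regions of the class was -4.67 to -2.00 points on chromosome 10, -4.38 to -2.92 points on chromosome 12 and 1.03 to 1.70 points on X. Within 5 classes of strength the direction was also the same in each. Copy number and base composition were not analysed here.

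In windows of 5 Mb with at least 40 regions, the lower ranks on chromosome 10 were spread along its length. Of 21 such windows on chromosome 10, 17 were lower in both pairs, as were 7 of 11 on chromosome 12, and 8 of 12 on X were higher in both. Over all 515 windows, 145 were lower in both pairs, 168 higher in both and 201 opposite. The lowest 4 windows were all on chromosome 10, between 55 and 80 Mb, with medians of -8.17, -8.03, -7.19 and -7.11 points. The next was chr12:10000001-15000000 at -5.80 points. The highest was chr3:15000001-20000000 at 7.40 points (48 regions), followed by chr3:95000001-100000000 at 5.05 points and chr11:1-5000000 at 4.24 points.

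**Figure D4:**
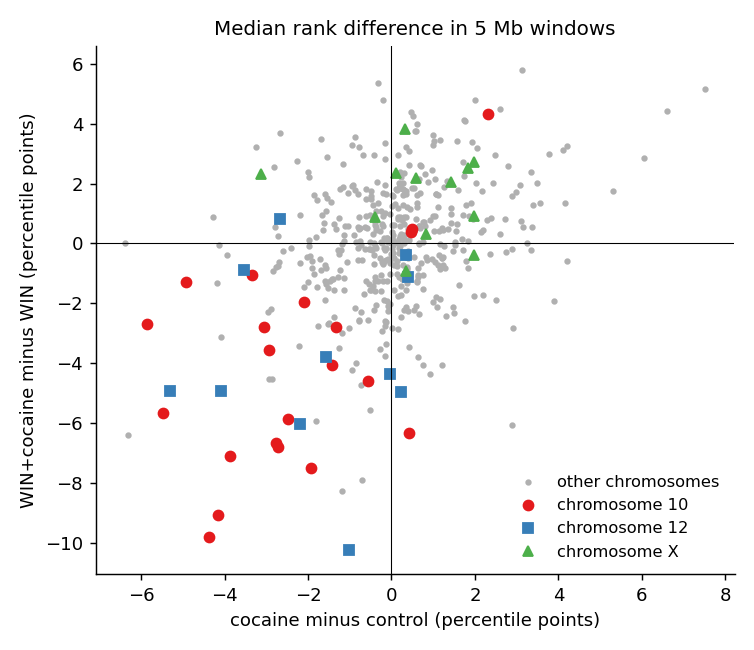
Median rank difference of 515 windows of 5 Mb, cocaine minus control (x axis, percentile points) against WIN+cocaine minus WIN (y axis, percentile points), 1 point per window, with chromosomes 10, 12 and X marked. Of the 21 windows of chromosome 10, 17 lie in the lower left quadrant, and 8 of the 12 windows of X lie in the upper right.

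Across windows the 2 pairs had a Pearson r of 0.380 and a Spearman rho of 0.307 (n = 515 windows, which share the libraries and, within a chromosome, their surroundings). These are above the values across single regions. Adjacent regions under 10 kb apart had a Pearson r of 0.0705 in their difference (10949 adjacent pairs), against 0.0341 for those over 100 kb apart (6385 adjacent pairs), so neighbours resembled each other only slightly.

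The width of the active region also moved with the difference. Regions were split into 10 width classes of equal number. Class 2 (355 to 391 bp) had a median difference of 2.20 points, with 22.8% of regions higher and 13.9% lower without overlap. Class 10 (792 to 2209 bp) had -1.22 points, with 12.1% higher and 34.9% lower. From class 4 on, each wider class had a lower median than the one before, and the narrowest class had 0.37 points. On the log2 scale as deposited, the median of the widest class less that of all regions was -0.11, smaller in size than the common shift of 0.14.

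Both pairs gave this order of narrow and wide regions. Class 2 had 2.62 points in cocaine minus control and 1.66 in WIN+cocaine minus WIN, and class 10 had -1.03 and -1.18. With all active regions ranked, class 2 had 0.64 points and class 10 -0.89. Regions with 2 intervals in at least 1 library (1748) had a median of -2.88 points, with 11.6% higher without overlap and 33.2% lower.

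**Figure D5:**
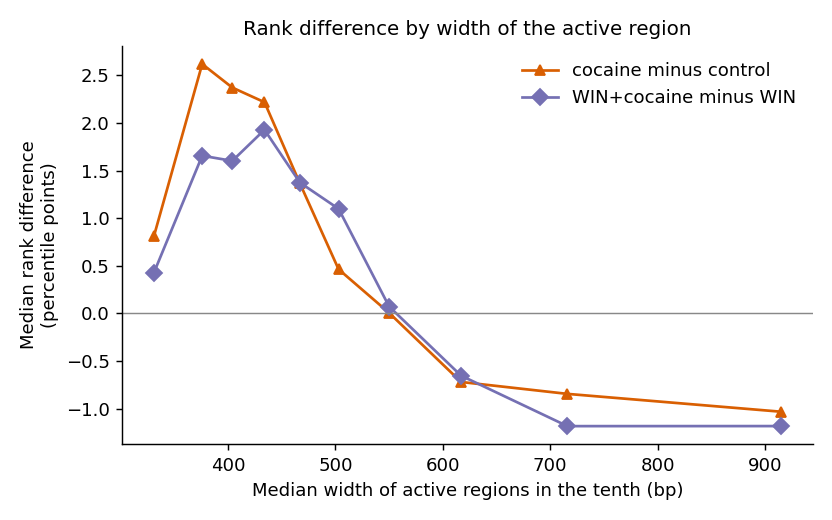
Median rank difference (y axis, percentile points) of the 10 classes of active region width, placed at the median width of the class (x axis, bp), for cocaine minus control and for WIN+cocaine minus WIN. Both lines lie above 0 in the narrow classes, up to 2.62 and 1.93 points, and below 0 in the 3 widest.

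The intervals themselves differed in width in the same sense. In the 47962 regions with 1 interval of each library, intervals were narrower in both cocaine-treated libraries than in both others in 11718 (24.4%) and wider in 7465 (15.6%), with a median difference of -9 bp. In the narrowest class, median interval width was 272 bp in control and 273 bp in WIN, against 285 bp in cocaine and 284 bp in WIN+cocaine. In the widest class it was 807, 826, 748 and 762 bp. Cocaine-treated intervals were thus wider in narrow regions and narrower in wide ones. Across regions the width difference and the rank difference had a Pearson r of 0.424 (both read from the same intervals), while summits of any pair of libraries lay a median of 32 bp apart, or 2 steps of the 16 bp grid.

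From the weakest to the strongest of 10 classes of mean rank, the share of regions without overlap went from 35.0% to 45.2%, and by width, from the narrowest to the widest class, from 35.6% to 47.0%. The median difference by strength, between -0.71 and 0.43 points, is held near 0 by the ranking itself and is not a result.

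Among the regions that did not hold an interval of every library, presence in both cocaine-treated libraries alone was more frequent than the reverse. It was seen in 4054 active regions (4.06%), against 1855 regions with an interval in control and WIN alone (1.86%), a ratio of 2.19. The direction depended on which intervals were counted, and the cause was not tested. With the 69639 highest-scoring intervals of each library, the counts were 2761 and 2884 and the ratio 0.957. With summit values of at least 30 alone counted, they were 3508 and 1037, a ratio of 3.38. In the full counts of 4054 and 1855, a missing interval means that none was listed, not that the region was closed. In the counts with a cut, it can also mean that a listed interval fell below the cut. Regions with an interval of every library can therefore be among those counts.

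Most regions of the full counts were weak, with a median of the lower summit value of 24 for the cocaine-treated and 23 for the reverse pattern. A lower value of at least 50 was reached in 111 of the first and 34 of the second. The strongest of the cocaine-treated pattern were chrX:90664741-90665102, with 167 in cocaine and 147 in WIN+cocaine, chr5:35024859-35025156 with 140 and 136, and chr1:230436818-230437171 with 132 and 141. All 3 were well above the median summit value of their libraries, and their summits lay at most 1 grid step of 16 bp apart. For the reverse they were chr13:25967095-25967563, with 77 in control and 79 in WIN, chr15:67554732-67555307 with 74 and 90, and chr17:43919270-43919574 with 75 and 73.

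By chromosome, leaving out Y with 1 region of each pattern, the ratio of the presence patterns was lowest on chromosomes 12 (49 against 33, ratio 1.48) and 10 (127 against 82, ratio 1.55) and highest on X (130 against 39, ratio 3.33). With equal numbers of intervals, it was 0.549 on chromosome 12, 0.612 on chromosome 10 and 1.28 on X, where chromosome 14 was highest at 1.45. The regions of the full counts are distinct from those ranked, but come from the same libraries. With equal numbers, an interval left out counts as missing, so ranked regions can be among those counted.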

How the data were processed

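The 4 ATAC libraries of rat prefrontal cortex were used, 1 per treatment, grouped by sample title. The authors deposited, per library, intervals and a summit for each with a whole-number score, and 1 track of active regions. The submitters' processing notes name BWA and MACS2 2.1.0. No source used here gives the genome build, removal of duplicates, transposase shift, scaling of the scores or numbers of reads.

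Each interval was placed in the active region that holds it (every one had such a region), and the highest summit value per region was ranked within library from 0 to 100 with ties at their mean. Limma 3.58.1 in R 4.3.3, with a prior variance trended on mean rank and Benjamini-Hochberg adjustment over 49737 regions, compared the sides. P-values measure only the spread between these libraries, which differ in WIN. On simulated data with 50 changed regions of each size, it recovered 0% of 1.5-fold, 18% of 2-fold, 24% of 3-fold and 40% of 4-fold changes. A region that was not called may therefore still differ. Single values per library were compared by exact permutation tests. Positions are 1-based.

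Named regions were the 6 widest rank differences per direction at a mean rank of 50 or more without overlap, the 3 widest per direction among all, the 3 highest mean summit values, and the 3 strongest of each presence pattern. Members, lists and rules were chosen with earlier results of these data known. The RNA libraries (18) were not used here. Alternatives covered the scale, the filter, the WIN term, left-out libraries and the numbers of intervals. Those that ranked within chromosome or width class, left out chromosomes 10 and 12, or compared widths over other intervals were chosen after seeing the data.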

Additional observations from a re-analysis of the deposited data

Results flagged for a closer look

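The pairs had opposite median differences on 8 of the 21 chromosomes with at least 50 regions, and on 2 of these both medians were at least 0.5 points from 0. On chromosome 3 the median rank difference was 1.00 points in cocaine minus control and -0.86 points in WIN+cocaine minus WIN. On chromosome 20 it was 0.67 and -1.21 points. Each pair has 1 library a side, and the difference between the pairs was not tested.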

How the results depend on the processing

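With 1 library per treatment, no setting adds a replicate. Against 0 calls by ranks, limma called 63 regions with WIN exposure as a term, 21 with normal scores, 13 with quantile-normalized log2 values and 6 with log2 values as deposited. The other settings called 0, among them each library left out in turn (0 to 0 calls). There a lone library is assumed to vary like the other side, and 2922 to 3617 regions passed an unadjusted p under 0.05. Regions without overlap were 38.7% to 43.1%, and regions with the same direction in both pairs 52.2% to 57.1%, over 10 settings each. With equal numbers of intervals, where one left out counts as missing, regions in control and WIN alone numbered 2884 and the ratio reversed to 0.957. With summit values of at least 30 they numbered 1037 and the ratio was 3.38. The cause was not tested. The median width of intervals differed by -17 bp over all intervals, by -12 bp in regions of all libraries, by -9.5 bp with 1 interval per library and by -7.5 bp with equal numbers. The 18 regions named for their rank difference had the same direction under every alternative that held them. They were chosen for wide differences and none had sides that overlap. A change of direction was therefore hardly possible, and its absence is no support. Of the 18, 4 had an adjusted p under 0.05 in at least 1 limma alternative. These were on chromosomes 7 (the higher one), 1, 6 and 9 (at mean rank 50 or more). By replicate number, no paired analysis was possible because each ATAC treatment has 1 library and the RNA libraries, which carry the shared numbers, were not used. The fit with WIN as a term, which gave the 63 calls, pairs the libraries by WIN exposure instead.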
